A study of Arabidopsis thaliana with 8 samples.

Results

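Of the 2366 URI peaks in the authors' deposited table, 359 (15.2%) were strong peaks with little change by iron (Fe). They were chosen by 2 measured values, the mean concentration over all URI libraries and the difference between the Fe conditions. The concentration had to be at least 4.26 (log2 of normalised reads, or 19.2 reads). The concentration under Fe deficiency minus that under Fe sufficiency had to be above -1 and at most 0 (log2). Reads and differences of these peaks are therefore a description, with no test.

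The series mapped where URI sits on the chromosomes in Arabidopsis thaliana roots with ChIP-seq, chromatin immunoprecipitation followed by sequencing, in which DNA bound by a protein is pulled down with an antibody and sequenced. All 8 libraries came from a complementation line, in which a uri mutant carries an added URI gene, so no group lacks URI. Roots were held for 72 h with deficient Fe (3 URI ChIP libraries and 1 IgG control) or with sufficient Fe (3 URI ChIP libraries and 1 IgG control). The sources used here do not give the promoter or tag of the added gene, the age of the plants, or whether libraries came from separate plantings.

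The table holds 1 mean per Fe condition and no value per library, so the spread between replicates and the depth per library are unknown. Whether any difference in reads exceeds that spread was not tested, and the IgG libraries were not analysed here.

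URI (bHLH121) belongs to the basic helix-loop-helix family, whose members bind E-box motifs in DNA, the G-box among them. It acts with related factors upstream of the genes that raise Fe uptake when Fe is short. Ferritins, the Fe stores of plastids, are genes that plants express with ample Fe and repress when Fe is low.

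The window of differences held most URI peaks of any strength. Among all 2366 peaks, 72.1% lay in it, 19.9% had a difference above 0 and 7.95% had a difference of -1 or less. Among the 501 peaks that reached the concentration floor, these shares were 71.7% (the 359 peaks), 25.9% (130 peaks) and 2.4% (12 peaks). The share of strong peaks inside the window was thus close to the share of all peaks.

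The 359 peaks held 13.1 to 263 reads under Fe deficiency (median 21.0) and 19.6 to 402 reads under Fe sufficiency (median 29.7). Their differences ran between -0.98 and -0.01, with a median of -0.51, beside -0.46 over all peaks. At the median peak the reads under Fe deficiency were 70.2% of those under Fe sufficiency, and this share spanned 50.7% to 99.3%. Little change is thus the name of a window, and at its lower edge a peak had about 0.5 times the reads under deficiency. Within the window, 57 peaks (15.9%) had differences up to -0.75, 129 (35.9%) lay above that and up to -0.5, 112 (31.2%) above that and up to -0.25, and 61 (17.0%) above -0.25. Set against the median of all peaks, 157 lay above it, 197 below it and 5 at it.

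**Figure D1:**
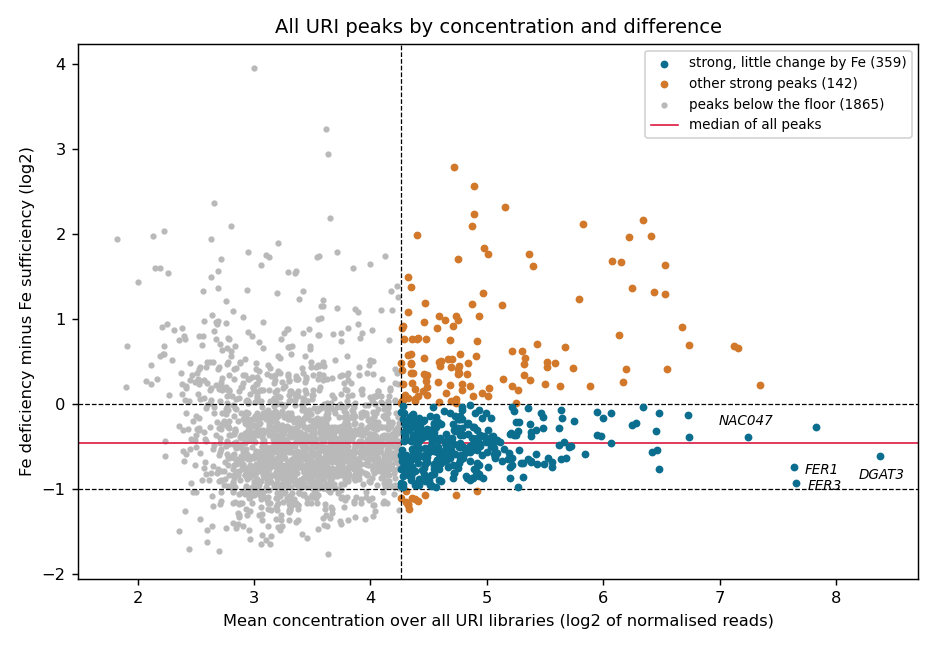
Each point is 1 URI peak, with its mean concentration (log2 of normalised reads) on the x axis and its log2 difference, Fe deficiency minus Fe sufficiency, on the y axis. The 359 strong peaks (teal) lie right of the floor of 4.26 and between the dashed bounds of -1 and 0, on both sides of the red line at the median of all peaks (-0.46).

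The strongest of these peaks stood beside genes of very different roles. The highest lay within 1000 bp of DGAT3 (AT1G48300), an acyltransferase of oil synthesis, at chromosome 1, 17845339 to 17847777 (TAIR10, as deposited). It held 263 reads under Fe deficiency and 402 reads under Fe sufficiency, a difference of -0.61. The next had its midpoint inside AT3G56360 and also touched AT3G56350, at chromosome 3, 20895417 to 20897266. It held 206.5 reads under Fe deficiency and 249 reads under Fe sufficiency, a difference of -0.27. These were also the densest peaks of the set, at 13.7 reads per 100 bp near DGAT3 and 12.3 at AT3G56360, beside a median of 1.86.

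The peaks at the ferritin genes FER3 and FER1 came next, while that at FER4 stood lower (concentration 6.28). The peak beside FER3 (AT3G56090; chromosome 3, 20814350 to 20817890) held 139 reads under Fe deficiency and 265 under Fe sufficiency, a difference of -0.93. The peak over FER1 (AT5G01600; chromosome 5, 228407 to 231450) held 150.1 reads under Fe deficiency and 251 under Fe sufficiency, a difference of -0.74. The peak inside FER4 (AT2G40300; chromosome 2, 16832542 to 16833979) held 72.0 reads under Fe deficiency and 83.9 under Fe sufficiency, a difference of -0.22. Of the 4 ferritin genes, 3 had a URI peak within 1500 bp, and all 3 peaks were in the set. All 3 were strong, and 71.7% of the 501 strong peaks were in the set. The rule uses the difference itself, so this count carries no evidence beyond the rule. FER3 and FER1 lay below the lower quartile of the set's differences (-0.68), and FER4 above its upper quartile (-0.33).

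Several of the other leading peaks lay beside regulators. The stronger of 2 peaks nearest NAC047 (AT3G04070), a NAC transcription factor of ethylene-driven leaf bending, held 131 reads under Fe deficiency and 171 under Fe sufficiency (difference -0.39). The weaker, also in the set, held 22.2 reads under Fe deficiency and 40.5 under Fe sufficiency (-0.87). Near GID1B (AT3G63010), which encodes a gibberellin receptor, the reads were 101 under Fe deficiency and 111 under Fe sufficiency (-0.13). A second, weaker peak of the set near GID1B held 29.2 reads under Fe deficiency and 39.9 under Fe sufficiency (-0.45). ERF4 (AT3G15210) encodes a repressor of ethylene and abscisic acid responses. Its peak held 72.0 reads under Fe deficiency and 105 under Fe sufficiency (-0.54). TGA1 (AT5G65210) encodes a bZIP factor of defence and nitrate responses. Its peak, 4228 bp wide, held 69.1 reads under Fe deficiency and 103 under Fe sufficiency (-0.57).

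Other peaks among the 12 of highest concentration lay nearest to genes without a symbol. The widest of all 359, at 5342 bp, was nearest AT5G61997 and within 1500 bp of ARF2 (AT5G62000), an auxin response factor that represses growth. It held 92.4 reads under Fe deficiency and 121 under Fe sufficiency (-0.39). The stronger of 2 peaks nearest AT1G60160 held 86.2 reads under Fe deficiency and 92.4 under Fe sufficiency (-0.10). The weaker, also in the set, had a difference of -0.52. A peak over 3000 bp from any protein-coding gene, nearest AT5G30520 (chromosome 5, 11731487 to 11732530), held 65.8 reads under Fe deficiency and 112 under Fe sufficiency (-0.77). The differences of the 12 peaks therefore covered most of the window.

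**Figure D2:**
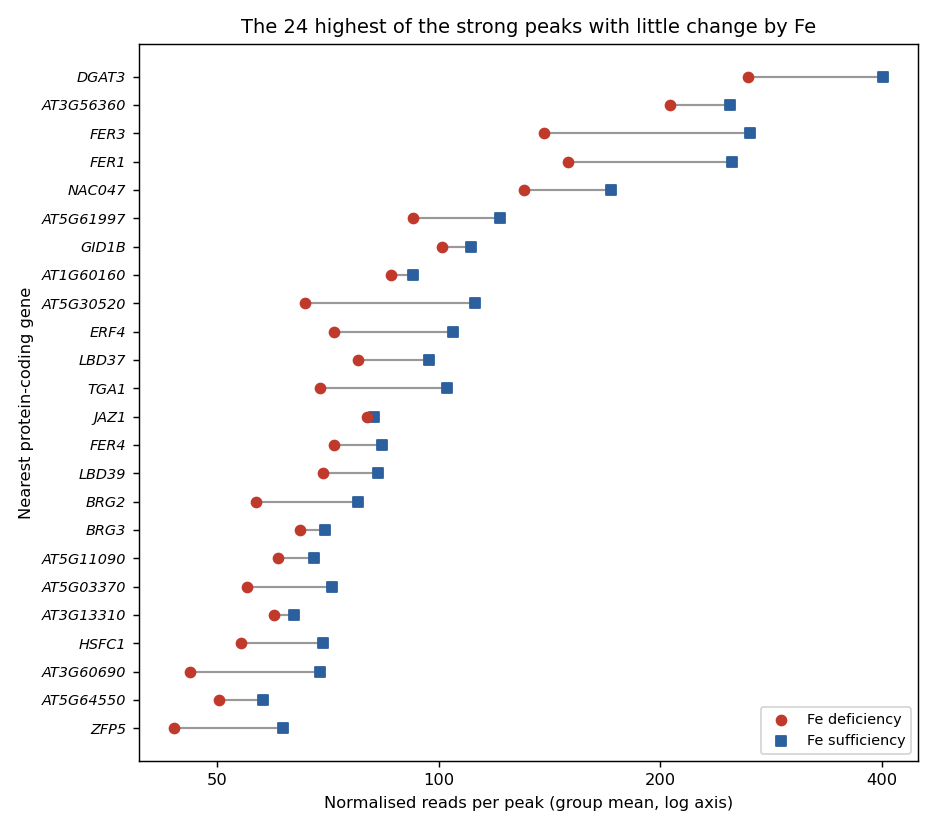
For the 24 peaks of highest concentration, named by the nearest protein-coding gene, the red circle marks the mean normalised reads under Fe deficiency and the blue square those under Fe sufficiency (log axis). The pairs of GID1B (101 and 111 reads under deficiency and sufficiency) and JAZ1 (79.9 and 81.6) lie closer together than the pair of FER3 (139 and 265).

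Genes of other pathways were counted from lists. Over all 27444 protein-coding genes, 3246 had a URI peak within 1500 bp. Of these, 551 had one of the 359 (2.01% of all genes and 17.0% of those with a peak). The lists were put together with earlier results of these data known, so their counts are a description.

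Of 9 nitrate response genes, 8 had a URI peak and 6 had one of the set, with a median difference of -0.37. LBD37, LBD38 and LBD39 encode repressors of nitrogen-responsive genes. The LBD37 peak (AT5G67420) held 77.7 reads under Fe deficiency and 97.0 under Fe sufficiency, and the LBD39 peak (AT4G37540) 69.6 under Fe deficiency and 82.7 under Fe sufficiency. The LBD38 peak (AT3G49940) was weaker, with 26.2 reads under Fe deficiency and 30.9 under Fe sufficiency. NRT1.1 (AT1G12110) is a nitrate transporter and sensor, and its peak held 41.1 reads under Fe deficiency and 57.3 under Fe sufficiency. For NRT2:1 (AT1G08090), a high-affinity nitrate transporter, the reads were 25.5 under Fe deficiency and 33.8 under Fe sufficiency. The peak inside NLP7 (AT4G24020), a master regulator of the nitrate response, held 21.4 reads under Fe deficiency and 28.8 under Fe sufficiency. The differences of the 6 ran between -0.48 and -0.24. NIA1 (nitrate reductase) and NIR1 (nitrite reductase) had only peaks below the floor.

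Nutrient genes outside the lists were picked after their values were seen. AMT1;1, a root ammonium transporter, had 2 peaks of the set. They held 15.3 and 15.1 reads under Fe deficiency, against 24.6 and 24.1 reads under Fe sufficiency. The peak near HRS1, a factor that links nitrate and phosphate, held 36.3 reads under Fe deficiency and 47.2 under Fe sufficiency. SULTR1;2 encodes a root sulfate uptake transporter, and its peak held 26.0 reads under Fe deficiency and 47.5 under Fe sufficiency (-0.87). At the even end, the peak near BOR1, a borate exporter, held 29.9 reads under Fe deficiency and 31.3 under Fe sufficiency (-0.07). SPX1, a phosphate sensor, had 18.3 reads under Fe deficiency and 30.1 under Fe sufficiency (-0.72).

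Over the 5 Fe lists other than ferritins, 2 of 55 genes (3.64%) had a peak of the set, beside 2.01% of all protein-coding genes. Among genes with any URI peak, these were 2 of 37 (5.41%), beside 551 of 3246 (17.0%). Of 14 Fe-deficiency transcription factor genes, 8 had a URI peak and 0 had one of the set, while 7 had a strong peak with a difference above 0. Of 6 genes for Fe-sensing E3 ligases and IMA peptides, 5 had a peak and 0 one of the set. Of 6 listed plastid genes (tetrapyrrole, Fe-S and ascorbate peroxidase), all 6 had a peak and 0 one of the set. The tetrapyrrole gene HEMA2 is not on this list and had a peak of the set (-0.32). Among 9 genes of Fe uptake and coumarins, AHA2 (AT4G30190), a proton pump of the root surface, was the only one with a peak of the set. Its peak held 16.8 reads under Fe deficiency and 25.5 under Fe sufficiency (-0.60). Among 20 genes of Fe transport within the plant, NAS3, a nicotianamine synthase gene, was the only one, and its peak lay nearer to AT1G09230. That peak held 47.2 reads under Fe deficiency and 53.1 under Fe sufficiency (-0.17). The rule uses the difference itself, so these counts carry no evidence beyond the rule.

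**Figure D3:**
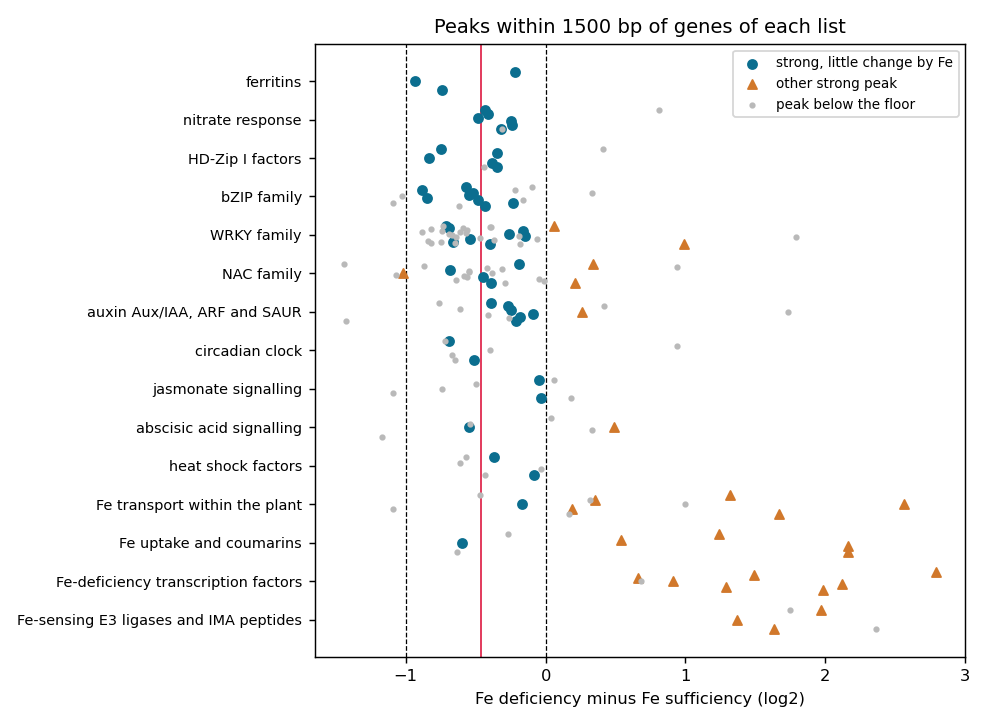
Each point is the strongest peak within 1500 bp of a gene of the list on the y axis (a peak of the set where the gene has one), with the log2 difference, Fe deficiency minus Fe sufficiency, on the x axis. Teal points are among the 359, orange triangles are other strong peaks, grey dots are below the floor, dashed lines are the bounds of -1 and 0, the red line is the median of all peaks (-0.46), and the vertical offset within a list has no meaning. The 3 ferritin peaks lie between -0.93 and -0.22, while strong peaks of the Fe-deficiency transcription factors lie above 0.

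Transcription factor genes were common neighbours of strong peaks of either kind. The nearest gene belonged to 1 of 9 joined families for 34 of the 359 peaks (9.47%), against 14 of the 142 other strong peaks (9.86%), 5.42% of peaks below the floor and 1.73% of all protein-coding genes. The shares of both kinds of strong peak were close to each other, and no test was run. Most of these families were matched by gene symbol, so factor genes under other names were not counted. Among genes with a URI peak, 8 of 33 WRKY and 8 of 15 bZIP genes had one of the set. So did 5 of 7 class I homeodomain leucine zipper, 4 of 22 NAC and 2 of 17 MYB genes. The B-box and heat shock factor families each had 2 of 8, ERF and DREB 1 of 17 (ERF4) and bHLH 0 of 11. The share over all genes with a peak was 17.0%. The rule uses the difference itself, so these counts carry no evidence beyond the rule. The nearest gene had a symbol of its own for 58.8% of the 359 peaks and 59.9% of other strong peaks. For peaks below the floor it was 49.8%, so the shares depend in part on naming.

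The WRKY family, known for defence, had 33 genes with a peak and 8 with one of the set (median difference -0.47). WRKY23 led with 42.2 reads under Fe deficiency and 46.9 under Fe sufficiency (-0.15). WRKY72 had 32.7 reads under Fe deficiency and 53.4 under Fe sufficiency (-0.71). The related genes WRKY11 and WRKY17 had 29.9 and 31.6 reads under Fe deficiency, against 48.2 and 45.9 reads under Fe sufficiency. Outside the set, strong peaks near WRKY13 and WRKY59 had differences of 0.06 and 0.99, and 23 WRKY genes had only peaks below the floor.

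Among bZIP genes, 15 had a peak and 8 had one of the set (median difference -0.54). Besides TGA1, these included its close relative TGA4, with 15.0 reads under Fe deficiency and 27.7 under Fe sufficiency (-0.88). GBF2 and GBF3 are factors that bind the G-box. GBF2 had 20.1 reads under Fe deficiency and 36.3 under Fe sufficiency (-0.85). The GBF3 peak, nearer to AT2G46260, held 38.1 reads under Fe deficiency and 44.6 under Fe sufficiency (-0.23).

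Class I homeodomain leucine zipper factors act in drought and light responses, and 5 of 11 genes had a peak of the set. HB-12, induced by drought and abscisic acid, had 32.2 reads under Fe deficiency and 41.1 under Fe sufficiency (-0.35). HB-7, its close relative, had 21.7 reads under Fe deficiency and 38.6 under Fe sufficiency (-0.83). A second, weaker peak of the set at HB-7 had a difference of -0.91. The other 3, HB-1, HB5 and HB16, had differences between -0.75 and -0.35. Of 91 NAC genes, 22 had a peak and 4 had one of the set, beside 551 of 3246 over all protein-coding genes with a peak. Outside the set, 2 NAC genes had strong peaks with a difference above 0 and 1 had a strong peak at -1 or less. NAC083, among the 4, had 36.3 reads under Fe deficiency and 58.1 under Fe sufficiency (-0.68). Among heat shock factors, HSFC1 had 53.8 reads under Fe deficiency and 69.6 under Fe sufficiency (-0.37). HSFA6B had 36.5 reads under Fe deficiency and 38.6 under Fe sufficiency (-0.08).

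Hormone genes included some of the most even peaks. JAZ1 (AT1G19180) and JAZ3 (AT3G17860) encode repressors of jasmonate responses and were the 2 of 16 jasmonate genes with a peak of the set. Another 5 had only peaks below the floor, with differences between -1.09 (JAZ4) and 0.18 (JAZ2). JAZ1 had 79.9 reads under Fe deficiency and 81.6 under Fe sufficiency (-0.03). The stronger of 2 peaks at JAZ3 had 39.9 reads under Fe deficiency and 41.4 under Fe sufficiency (-0.05). The weaker, also in the set, had 18.6 reads under Fe deficiency and 22.5 under Fe sufficiency (-0.27). Of 14 genes with auxin symbols (Aux/IAA, ARF and SAUR) and a peak, 6 had one of the set, with a median difference of -0.23. They were matched by symbol alone and include AT5G01830, listed as SAUR21, whose function was not checked. A peak of the set nearest IAA9 (-0.85) was not counted, because it lay over 1500 bp from that gene. IAA16, a repressor of auxin responses, had 36.0 reads under Fe deficiency and 41.6 under Fe sufficiency. Of 16 listed abscisic acid genes, 1 had a peak of the set, the bZIP gene ABF3, with 19.0 reads under Fe deficiency and 27.9 under Fe sufficiency (-0.55). HAI1 had a strong peak with a difference of 0.49, and 4 had only peaks below the floor. The list does not hold all abscisic acid genes. Outside it, 6 picked after their values were seen had peaks of the set (-0.61 to -0.35). These were PYL4, PYL5, PP2CA, TMAC2, ERD10 and COR47.

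Hormone receptor genes were a group picked after their values were seen. PYL5 and PYL4, abscisic acid receptors, had differences of -0.35 and -0.61. TIR1, the auxin receptor, had 17.6 reads under Fe deficiency and 23.6 under Fe sufficiency (-0.42). BRI1, the brassinosteroid receptor, had 26.0 reads under Fe deficiency and 29.4 under Fe sufficiency (-0.18), and another strong peak near it had a difference of 0.51. EIN4, an ethylene receptor, had 15.7 reads under Fe deficiency and 30.1 under Fe sufficiency (-0.94). NPR3, a salicylic acid receptor, had 22.0 reads under Fe deficiency and 38.1 under Fe sufficiency (-0.79). With the stronger GID1B peak at -0.13, receptor genes stood at both ends of the window.

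Of 14 clock genes, 7 had a URI peak and 2 had one of the set. PRR5, a repressor of the clock, had 27.1 reads under Fe deficiency and 38.6 under Fe sufficiency (-0.51). GI, a clock and flowering regulator, had 16.2 reads under Fe deficiency and 26.2 under Fe sufficiency (-0.69). AOX1A and HEMA2 were picked after their values were seen. AOX1A, the mitochondrial alternative oxidase, had 34.3 reads under Fe deficiency and 51.6 under Fe sufficiency (-0.59). HEMA2, an enzyme at the start of tetrapyrrole synthesis, had 34.3 reads under Fe deficiency and 42.8 under Fe sufficiency (-0.32). Of 7 genes often used as constant references, 4 had a URI peak. Of these, 2 had one of the set and 2 had only peaks below the floor. ACT2, an actin gene, had 25.6 reads under Fe deficiency and 28.4 under Fe sufficiency (-0.15), and UBQ10, a ubiquitin gene, 19.4 under Fe deficiency and 25.3 under Fe sufficiency (-0.38). Of 13 plasma membrane aquaporin genes, 5 had a URI peak within 1500 bp, all below the floor.

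Smaller families with more than 1 gene beside peaks of the set were also picked after their values were seen. They are examples and not counts over whole families. BRG2 and BRG3 encode related RING ubiquitin ligases. BRG2 had 56.5 reads under Fe deficiency and 77.7 under Fe sufficiency (-0.46). BRG3 had 64.9 reads under Fe deficiency and 70.0 under Fe sufficiency (-0.11), and another strong peak near it had a difference of 0.26. The peak nearest the related gene BOI, over 3000 bp away from it, had a difference of -0.59. The stress zinc finger gene RHL41 (also called ZAT12) had 32.2 reads under Fe deficiency and 51.3 under Fe sufficiency (-0.67). Its relatives STZ and ZAT11 had differences of -0.30 and -0.38, and the stronger of 2 peaks at ZF2 had -0.10. Of the genes for ACT domain repeat proteins, ACR8 had 40.2 reads under Fe deficiency and 48.8 under Fe sufficiency (-0.28). ACR3, ACR5 and ACR7 had differences of -0.43, -0.70 and -0.63. TPL, a corepressor used by several hormone pathways, had 23.9 reads under Fe deficiency and 30.7 under Fe sufficiency (-0.36). The related TPR2 had 14.9 reads under Fe deficiency and 24.3 under Fe sufficiency (-0.70). In calcium signalling, CBL1, a calcium sensor, had 29.2 reads under Fe deficiency and 32.9 under Fe sufficiency (-0.17). CIPK12, a kinase of the family that such sensors bind, had 14.3 reads under Fe deficiency and 26.5 under Fe sufficiency (-0.89). Of 21 genes of this kinase family, 10 had a URI peak and only 1, CIPK12, had one of the set.

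The 8 peaks nearest to a difference of 0 included those of JAZ1 and JAZ3. The nearest was that of ATSIK, a kinase gene, with 28.8 reads under Fe deficiency and 29.0 under Fe sufficiency (-0.01). AT5G05140 (-0.02), SAUR21 (-0.03), JAZ1 (-0.03), AT3G16350 (-0.04), MIZ1 of root hydrotropism (-0.04), JAZ3 (-0.05) and EDA12 (-0.07) followed. Just outside the upper bound, the peak of CAT2, a catalase gene, held 24.3 reads under Fe deficiency and 23.9 under Fe sufficiency (0.02). Just inside the lower bound stood GRXS13 (a glutaredoxin gene), AT3G05900 and AT1G78850, each at -0.98, the lowest of the set. GRXS13 had 26.0 reads under Fe deficiency and 51.3 under Fe sufficiency. Just outside it, ATAF2, a NAC factor gene, had 20.1 reads under Fe deficiency and 40.8 under Fe sufficiency (-1.02). At the floor, the ABCB23 peak (concentration 4.26) was inside and the NUDT18 peak (4.25) outside.

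The 359 peaks were 317 to 5342 bp wide, with a median of 1421 bp (quartiles 1188.5 and 1712.5 bp). Other strong peaks had a median width of 1342.5 bp and peaks below the floor 663 bp. Widths of 1500 bp or more were found in 155 of the 359 (43.2%), in 51 of the 142 other strong peaks (35.9%) and in 3 of the 1865 peaks below the floor. The stronger peaks were wider. The median width was 1154 bp for the 115 peaks with a concentration under 4.5, 1464 bp for the 155 between 4.5 and 5, 1928 bp for the 71 between 5 and 6, 3351 bp for the 13 between 6 and 7, and 3043 bp for the 5 of 7 or more. Across the 359 peaks Spearman's rho between concentration and width was 0.76, and between concentration and difference 0.14. These are descriptions across peaks that share their libraries, and a wider peak gathers more reads. Per 100 bp, the set held a median of 1.86 reads, other strong peaks 2.15 and peaks below the floor 1.62.

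A few narrow peaks were dense. The narrowest was 317 bp wide, at chromosome 4, 3954021 to 3954338, over 5000 bp from its nearest protein-coding gene (AT4G06688). It held 27.1 reads under Fe deficiency and 36.3 under Fe sufficiency, with 10.0 reads per 100 bp on average. Its neighbour at chromosome 4, 3954942 to 3955365 (423 bp), held 24.8 reads under Fe deficiency and 34.3 under Fe sufficiency. The third narrowest, 545 bp at chromosome 1, 15084409 to 15084954, was inside AT1G40104. It held 24.1 reads under Fe deficiency and 40.2 under Fe sufficiency (-0.74).

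**Figure D4:**
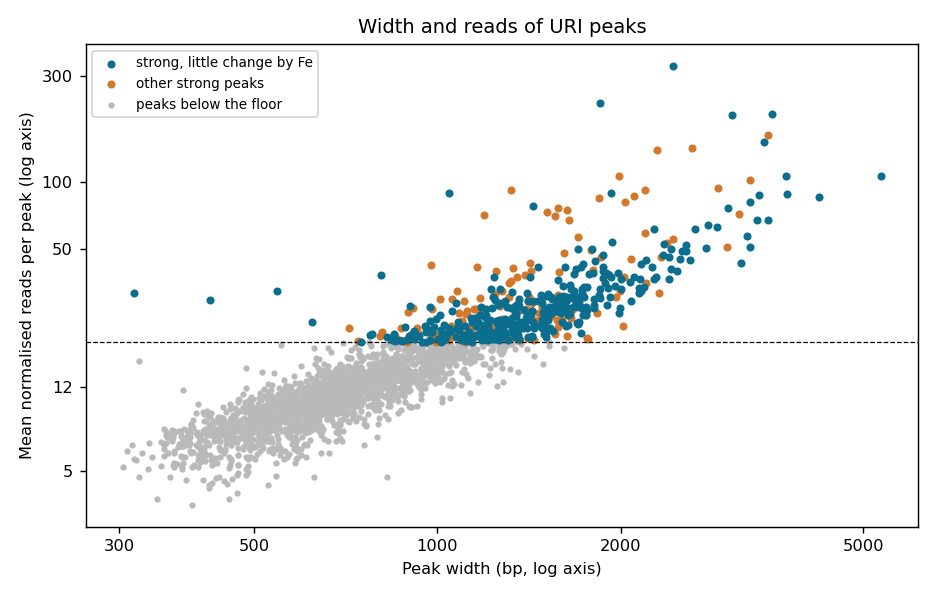
Each point is 1 URI peak, with its width (bp, log axis) on the x axis and its mean normalised reads (log axis) on the y axis, and the dashed line is the floor of 19.2 reads. Wider peaks hold more reads in all 3 classes, and the narrowest peaks of the set, at 317 to 545 bp, stand above most others of their width.

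Most of the 359 peaks lay beside genes. The midpoint was inside a protein-coding gene for 30 of them (8.36%), against 16.9% of other strong peaks and 21.8% of peaks below the floor. It lay outside genes but within 1000 bp of one for 220 (61.3%), against 54.9% and 58.4%. It lay over 1000 and up to 3000 bp away for 96 (26.7%), against 26.1% and 17.1%. For 13 (3.62%) it lay over 3000 bp away, 5 of them over 5000 bp. The differences between these shares were not tested. By any overlap of the whole peak, the classes were closer, with 231 of the 359 (64.3%) touching a protein-coding gene, against 66.2% of other strong peaks and 60.1% of peaks below the floor. At least 2 genes were touched by 44 (12.3%), against 20.4% and 8.58%. The gene table gives no strand, so gene starts and ends could not be told apart. The space between genes that held a peak had a median of 3095 bp for 329 peaks of the set, 3153.5 bp for other strong peaks and 2629 bp for peaks below the floor.

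**Figure D5:**
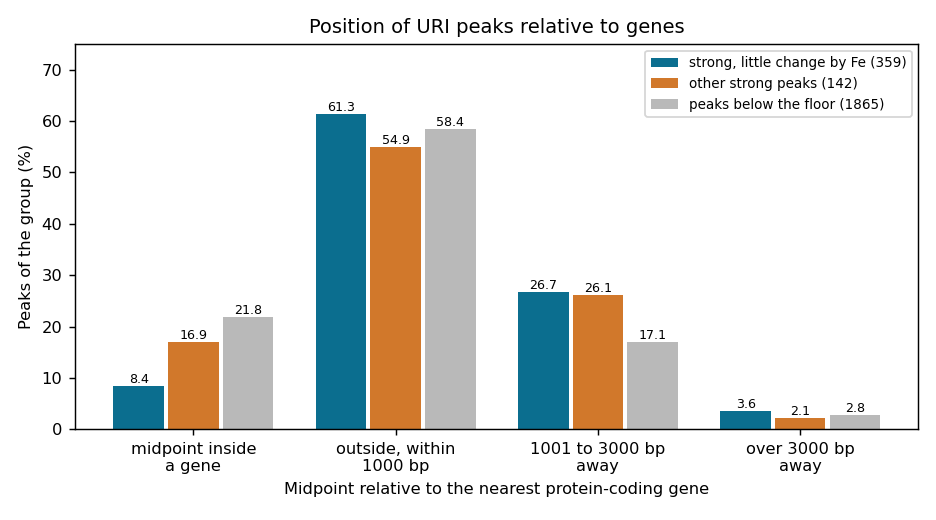
Bars give the percent of peaks in each class by where the midpoint lies relative to the nearest protein-coding gene. Inside genes the bars stand at 8.36% for the 359 peaks, 16.9% for the other strong peaks and 21.8% for peaks below the floor.

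Chromosomes 1 to 5 held 87, 56, 83, 58 and 75 of the 359 peaks (24.2%, 15.6%, 23.1%, 16.2% and 20.9%), against 26.1%, 15.0%, 19.9%, 15.6% and 23.4% of all peaks. Another URI peak lay within 1000 bp of 92 of them (25.6%), against 24.6% of other strong peaks and 18.3% of peaks below the floor. Within 5000 bp, 180 (50.1%) had another peak, against 43.7% of other strong peaks and 41.2% of peaks below the floor. These shares were not tested. The nearest such peak was below the floor for 128, one of the 359 for 45, a strong peak with a difference above 0 for 6 and a strong peak at -1 or less for 1. Among all peaks of the series, these classes made up 78.8%, 15.2%, 5.49% and 0.51%. The 24 pairs of neighbours within the set had differences a median of 0.19 apart. Over all 159 pairs of a peak of the set and its nearest peak, this median was 0.30. The rule confines both peaks of the 24 pairs to its window, so their closeness carries no evidence beyond the rule.

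For 17 genes, 2 peaks of the set lay within 1500 bp. Both peaks of HSFC1 had a difference of -0.37, and those of NAC083 had -0.68 and -0.22. For 6 genes, a peak of the set and a strong peak with a difference above 0 lay within 1500 bp of the same gene, namely AT1G78070, AT3G17780, BRG3, BRI1, ERF4 and LBD37. At AT3G17780 the peak of the set held 18.5 reads under Fe deficiency and 21.6 under Fe sufficiency (-0.22). The other peak there held 132 reads under Fe deficiency and 81.6 under Fe sufficiency (0.69). At ERF4 the other peak held 45.3 reads under Fe deficiency and 37.3 under Fe sufficiency (0.28), beside -0.54 for the peak of the set. At BRI1 it held 28.6 reads under Fe deficiency and 20.1 under Fe sufficiency (0.51), and at BRG3 78.2 under Fe deficiency and 65.3 under Fe sufficiency (0.26). At AT1G78070 it held 176 reads under Fe deficiency and 151 under Fe sufficiency (0.22), beside -0.54 for the peak of the set. LBD37 had the smallest such difference, 0.03.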

How the data were processed

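The submitters' processing notes name DiffBind, MACS2, bedtools (2.26.0), Trimmomatic (0.33), Picard (2.4.1), Bowtie (1.2.2) and SAMtools (1.3.1), and the build TAIR10. Roles, settings, normalisation and use of the IgG libraries are not stated there. The authors deposited 1 table of peaks, and its concentrations were taken as normalised reads on a log2 scale, because the overall value equals the log2 mean of both conditions within 0.0093. Reads are 2 to the power of a concentration. Differences are Fe deficiency minus Fe sufficiency, from the 2 condition columns. The deposited fold, p-value and FDR columns were not used. Coordinates are as deposited, with no statement of whether starts count from 0 or 1.

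An NCBI RefSeq gene table (TAIR10.1, 27444 protein-coding genes) gave names and neighbours only. A peak was named by the gene nearest its midpoint, and a gene was near a peak within 1500 bp. The rule named genes of the 12 highest concentrations, the 8 differences nearest 0, those at each bound, the 5 widest and narrowest, up to 4 per list and genes with at least 2 peaks, of which examples are given. The peaks, the 29 lists and the rule were chosen with earlier results of these data known, and some symbol patterns were corrected after matches were seen. Genes outside the rule, such as those of the 6 genes near both kinds of strong peak, were chosen after their values were seen. Python 3.11.15, pandas 2.3.3, numpy 2.4.6 and scipy 1.17.1 were used, and the selection and neighbour steps were tested on simulated data.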

Additional observations from a re-analysis of the deposited data

How the results depend on the processing

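The number of peaks, 359, was 56 with the floor raised by 1 (log2), 1280 with the floor lowered by 1, and 173 with differences above -0.5 only. With the median difference of all peaks subtracted first, it was 214, of which 202 were among the 359 (56.3% of the 359 and 94.4% of the 214). Including -1 and leaving out 0 gave 359 again, and the upper bound was not moved alone. The median width, 1421 bp, was 2409.5 bp with the floor raised and 1400.5 bp after subtracting the median. The share inside a gene, 8.36% by midpoint, was 64.3% by any overlap of 1 bp, 10.9% with all annotated genes and 6.54% after subtracting the median. The share outside genes but near one, 61.3% within 1000 bp, was 33.1% within 500 bp and 73.5% within 1500 bp. No paired analysis was possible because the deposited table holds means per Fe condition and no value per library. Leaving out replicates was not possible for the same reason. The planned G-box alternatives were not run, since peak sequences were not used here.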
